A study of Glycine max with 12 samples.

Results

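The overexpression line *GmMYB21a-OE2* was compared with its recipient TL1 in flower buds kept at normal temperature (NT), which gives the line difference in plants that had not been heated. The comparison uses 6 of the 12 libraries of the series, 3 of *GmMYB21a-OE2* and 3 of TL1, chosen by their titles. TL1 is the soybean cultivar Tianlong No. 1, a restorer of fertility for cytoplasmic male sterility, and *GmMYB21a-OE2* is TL1 carrying the *GmMYB21a* coding sequence on the pTF101.1 vector. It is a single transgenic line, so that changes caused by the gene and any other change in that line cannot be told apart. Plants at NT had 28 °C days and 22 °C nights. The other 6 libraries are the same lines at high temperature (HT, days of 40 °C and nights of 34 °C), and are used here only to set the NT values beside them. The titles were followed for temperature, although a treatment label gives high temperature even for the NT libraries. Buds of mixed size were collected over the whole height of the plants, with 3 biological replicates of each line.

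MYB21 belongs to the R2R3 family of MYB transcription factors. In Arabidopsis it acts in stamens downstream of jasmonate, and is needed for filament growth and the opening of anthers. Related factors of snapdragon and tobacco, named MYB305, switch on genes of phenylpropanoid and flavonoid metabolism in flowers. Flavonoids, sporopollenin and pectin enzymes serve the pollen grain and its tube, and WRKY factors, which take their name from a conserved stretch of amino acids, regulate defence and stress genes in plants.

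The overexpressed sequence is shown by the gene-specific ends of the primers with which it was cloned, because they define what the construct carries. The capitals mark the start codon in the forward primer and the complement of the stop codon in the reverse primer.
GmMYB21a overexpression, forward: ATGgacaaaaaaccatgcgact
GmMYB21a overexpression, reverse: TTAatctccattgagtaattgcatagac
The construct thus runs from the start to the stop codon of the gene. Reads of the transgene and of the native gene fall on the same coding sequence, and the counts do not separate them.

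*GmMYB21a* was taken to be Glyma.19G006500, which the study's annotation names as a MYB305-type protein, the name *GmMYB21a* formerly had. The files do not pair this identifier with the study's protein directly. At NT its level was 6.39, 5.32 and 5.44 CPM in the 3 TL1 libraries and 41.5, 38.4 and 38.6 CPM in the 3 *GmMYB21a-OE2* libraries (CPM, read counts scaled to a common library size, here after TMM normalization). All 3 libraries of *GmMYB21a-OE2* lay above all 3 of TL1, in accordance with their labels. The log2 fold change was 2.78 (standard error of the fit, SE, 0.083, with an adjusted p = 1.13e-16 from the quasi-likelihood test of edgeR), a 6.89-fold higher level. At HT the levels were lower in both lines, 1.12, 0.810 and 0.894 CPM in TL1 and 11.4, 11.5 and 10.3 CPM in *GmMYB21a-OE2*, and the log2 fold change was 3.60 (SE 0.16). The line difference was larger at HT by 0.77 on the log2 scale (SE 0.17, adjusted p = 0.00587 in edgeR's test of the interaction).

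The 6 NT libraries held 32058303 to 36908429 counts. The first principal component, with 43.5% of the variance, separated the lines. Replicate 1 of *GmMYB21a-OE2* lay apart from the other libraries of its group, at -25.9 on the second component against 5.0 and 16.2, and its counts differed more from theirs (chi-square per degree of freedom 5.03 and 5.25) than theirs from each other (3.43). After the filter on low counts 41292 genes were tested. Differentially expressed genes (DEGs) are those that changed at least 1 unit on the log2 scale, up or down, with an adjusted p-value below 0.05. There were 392 DEGs, 0.949% of the genes tested, and in *GmMYB21a-OE2* 99 of them (0.240%) had a higher and 293 (0.710%) a lower level. Lower genes thus made up 74.7% of the DEGs. Without replicate 1 of *GmMYB21a-OE2* there were 458 DEGs, 112 higher and 346 lower. Without the fold threshold the balance turned, with 2466 genes (5.97%) higher and 2006 (4.86%) lower. The median log2 fold change over all genes tested was -0.0061.

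The groups of 3 libraries did not overlap in 98 of the 99 higher and 289 of the 293 lower DEGs, against 13.9% and 13.7% of all genes tested in the same directions. The DEGs were called on these same libraries, which favours such a separation. Most DEGs were of low abundance. The mean of the higher group reached 10 CPM in 16 of the higher and 29 of the lower DEGs, and 1 CPM in 70 and 205. The same was not counted over all genes tested, so low abundance is not shown to be particular to the DEGs. A change of at least 4-fold was seen in 21 higher and 67 lower genes, and the median size of change was 1.31 and 1.45 on the log2 scale. New genes that the authors added to the annotation supplied 8 of the higher and 29 of the lower DEGs. They are 936 of the 53808 genes counted, and their share among the genes tested was not worked out.

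**Figure D1:**
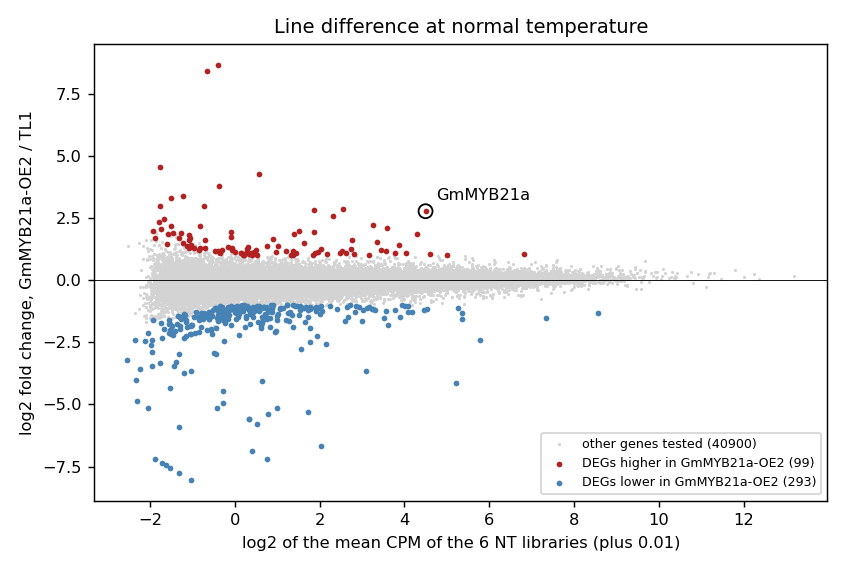
Log2 fold change between *GmMYB21a-OE2* and TL1 at NT (y axis) against the log2 mean CPM of the 6 NT libraries plus 0.01 (x axis), 1 point per gene tested. The 293 lower DEGs (blue) outnumber the 99 higher ones (red), most of both lie at low CPM, and *GmMYB21a* (circled) is among the most abundant of the higher genes.

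Names of genes come from the study's annotation table, of which 578 rows could be read and 476 name a product. That table lists genes the study chose for a change at HT, so that only 11 of the higher and 33 of the lower DEGs at NT have a name. That a named gene changed at HT, in either direction, is set by this choice. The names rest on likeness to proteins of other plants and do not show that a gene has the same role in soybean. The annotation holds a first and a second name, which can differ. The first is given here where it names a product.

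Among the higher DEGs with a name, *GmMYB21a* itself had the largest change among genes read in both lines. The next was Glyma.08G319300, annotated as RPM1, which in Arabidopsis is an intracellular immune receptor. It had 3.38, 3.64 and 3.13 CPM in TL1 and 16, 15.8 and 15.7 CPM in *GmMYB21a-OE2*. The groups lay far apart and the replicates close together, and the log2 fold change was 2.22 (SE 0.11, edgeR adjusted p = 9.37e-13). It was also higher at HT, by 1.43 on the log2 scale (SE 0.085).

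Both genes annotated as expansin-like B1, of a family related to the wall-loosening expansins, rose at NT. Glyma.05G065700 had 1.46, 1.89 and 1.19 CPM in TL1 and 5.37, 5.14 and 6.99 CPM in *GmMYB21a-OE2*, a log2 fold change of 1.94 (SE 0.19, edgeR adjusted p = 1.38e-07). At HT the same gene lay lower in *GmMYB21a-OE2*, with a log2 fold change of -2.49 (SE 0.42). Glyma.17G147500 had 3.35, 3.52 and 3.75 CPM in TL1 and 7.24, 7.83 and 7.86 CPM in *GmMYB21a-OE2*, a log2 fold change of 1.11 (SE 0.13) against -1.53 at HT (SE 0.23). In both genes no library of one line overlapped the other at NT, and the direction at HT was the reverse.

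Laccase-7 (Glyma.03G073776), of the copper oxidases that act on phenolic compounds in the cell wall, followed the same course at a lower level. It had 0.619, 0.270 and 0.375 CPM in TL1 and 1.26, 1.61 and 1.48 CPM in *GmMYB21a-OE2* at NT. Its log2 fold change was 1.76 (SE 0.33) at NT and -1.69 (SE 0.35) at HT. The aspartyl protease AED3 (Glyma.02G213000), which in Arabidopsis is a secreted protease of the defence response, had 3.26, 3.09 and 3.59 CPM in TL1 and 9.31, 12.1 and 9.67 CPM in *GmMYB21a-OE2*. Its log2 fold change was 1.64 (SE 0.13) at NT and 1.06 (SE 0.31) at HT.

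A run of 3 genes of chromosome 10 annotated as thaumatin-like protein 1a, of the PR-5 family of pathogenesis-related proteins, rose together. Their means in *GmMYB21a-OE2* were 1.88 CPM (Glyma.10G060800), 2.67 CPM (Glyma.10G061000) and 3.34 CPM (Glyma.10G061800), against 0.844, 1.21 and 1.66 CPM in TL1 (SD 0.075 to 0.26, n = 3). The log2 fold changes were 1.15, 1.14 and 1.0, close to the threshold, and each of these calls was lost in at least 1 of the fits that left out a library, with values down to 0.957, 0.996 and 0.958. At HT the same genes were higher by 1.56, 1.69 and 2.09. They share a name and neighbouring identifiers. Their sequences were not compared, and reads shared between them would not show in the counts.

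The 3 most abundant of the higher DEGs were Glyma.01G142400, Glyma.14G156400 and *GmMYB21a*. Glyma.01G142400, which has no name in the files, had 67.7, 71.8 and 76.9 CPM in TL1 and 156, 142 and 159 CPM in *GmMYB21a-OE2*, a log2 fold change of 1.08 (SE 0.055). Glyma.14G156400, also unnamed, went from 21.1 ± 1.36 CPM to 43.3 ± 2.35 CPM (SD, n = 3 each), and its log2 fold change was 1.03 (SE 0.066). This call was lost without replicate 3 of TL1 (0.991) and without replicate 1 of *GmMYB21a-OE2* (0.985).

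The most abundant of all DEGs was the gene annotated as SIEVE ELEMENT OCCLUSION B (Glyma.20G204500), a phloem protein of the kind that plugs injured sieve elements. At NT it had 562, 539 and 522 CPM in TL1 and 221, 223 and 216 CPM in *GmMYB21a-OE2*. The groups did not overlap, and the log2 fold change was -1.30 (SE 0.042, edgeR adjusted p = 4.78e-16). At HT the order of the lines was reversed, with 86.8, 83.6 and 69.5 CPM in TL1 and 223, 206 and 252 CPM in *GmMYB21a-OE2*, a log2 fold change of 1.55 (SE 0.092). Over both temperatures the 6 libraries of *GmMYB21a-OE2* thus lay between 206 and 252 CPM, whereas those of TL1 ranged from 69.5 to 562 CPM.

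Next in abundance among the lower DEGs were a pair of genes without a name. Glyma.11G155000 had 234, 234 and 247 CPM in TL1 and 90.2, 75.9 and 84.5 CPM in *GmMYB21a-OE2*, a log2 fold change of -1.51 (SE 0.054). It too was higher in *GmMYB21a-OE2* at HT, by 0.86 (SE 0.11). Glyma.12G233000 had 89.8, 91.3 and 94.9 CPM against 19.2, 17.4 and 16.2 CPM, a log2 fold change of -2.39 (SE 0.063), and at HT lay between 8.48 and 11.6 CPM in all 6 libraries, with a log2 fold change of -0.098 (SE 0.13).

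Some of the largest decreases among named DEGs at NT were also seen at HT, where the study had chosen these genes for a change. Villin-4 (Glyma.13G098600), of a family that bundles actin filaments, had 73.2, 67.4 and 71.2 CPM in TL1 and 4.72, 3.82 and 3.61 CPM in *GmMYB21a-OE2*. The log2 fold change was -4.12 (SE 0.083, edgeR adjusted p = 4.93e-20), and -6.09 at HT (SE 0.094). The gene annotated as JAR1 (Glyma.06G243500), which in Arabidopsis joins jasmonic acid to isoleucine to give the active hormone, had 15.1, 16.1 and 16 CPM in TL1 and 1.06, 1.09 and 1.60 CPM in *GmMYB21a-OE2*. It fell by 3.65 on the log2 scale at NT (SE 0.14, edgeR adjusted p = 1.25e-14) and by 2.68 at HT (SE 0.12). In both genes all 6 libraries of *GmMYB21a-OE2* lay far below all 6 of TL1.

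**Figure D2:**
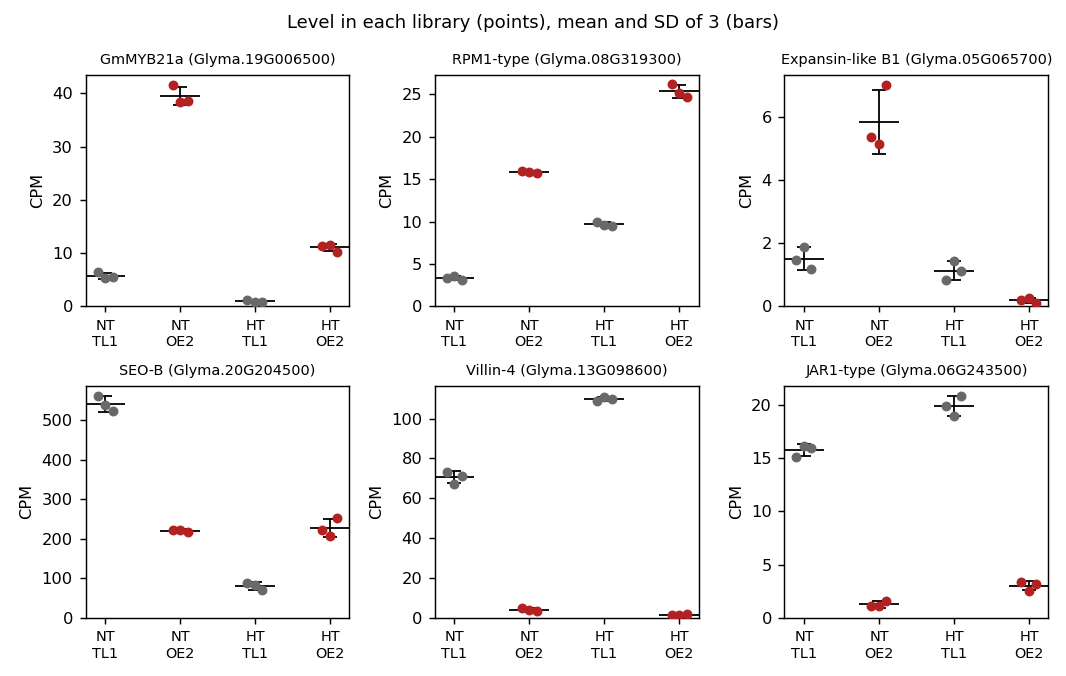
CPM in each library (points) with the mean and SD of 3 libraries (bars) for 6 named genes, in TL1 (grey) and *GmMYB21a-OE2* (OE2, red) at NT and HT. All 6 are among the genes the study chose for a change at HT. *GmMYB21a* and the RPM1-type gene are higher and Villin-4 and the JAR1-type gene are lower in *GmMYB21a-OE2* at both temperatures, whereas expansin-like B1 and SIEVE ELEMENT OCCLUSION B (SEO-B) change direction.

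Glyma.14G136351, annotated as a coiled-coil domain protein, had 7.54, 7.63 and 9.22 CPM in TL1 and 0.224, 0 and 0 CPM in *GmMYB21a-OE2*, with a log2 fold change of -6.67 (SE 0.36) at NT and -5.34 (SE 0.21) at HT. The NT value rests on the counts of replicate 1 of *GmMYB21a-OE2*, without which the fit gave -11.1, a value set by how counts of 0 are treated. The new gene DD_newGene_638, annotated as an ABC transporter, fell by 4.07 on the log2 scale at NT, from 2.94 ± 0.557 to 0.172 ± 0.0304 CPM (SD, n = 3 each). MYB63 (Glyma.20G047400), in Arabidopsis an activator of lignin genes, had 3.24, 1.83 and 2.03 CPM in TL1 and 0.699, 0.832 and 0.641 CPM in *GmMYB21a-OE2*. It was lower by a similar amount at both temperatures, with log2 fold changes of -1.71 (SE 0.27) at NT and -1.52 (SE 0.19) at HT. The glycine-rich protein gene DD_newGene_1438 behaved alike, with -1.61 (SE 0.25) and -1.83 (SE 0.17).

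A few genes were read in 1 line only, meaning 20 or more counts in every NT library of that line and no more than 3 in any of the other. In *GmMYB21a-OE2* these were Glyma.09G101100, unnamed, and DD_newGene_2202, annotated as a factor of messenger RNA cleavage and polyadenylation. Glyma.09G101100 had 1.43, 1.66 and 1.40 CPM in *GmMYB21a-OE2* and no count in the 3 NT libraries of TL1, and was at least 50.3-fold higher, taking 3 counts over the TL1 group as the floor. In TL1 at HT it was read at 0.364, 0.202 and 0.536 CPM. DD_newGene_2202 had 1.31, 1.23 and 1.22 CPM in *GmMYB21a-OE2*, was at least 42.3-fold higher, and had no count in TL1 at either temperature.

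The 3 most abundant genes read in TL1 only were new genes without a name. DD_newGene_2012 had 3.24, 3.27 and 3.47 CPM in TL1 and 2 counts in all in *GmMYB21a-OE2*, a ratio of 174 (95% interval 47.9 to 1450, for counting error only). Both counts were in replicate 3. It was read at a like level in TL1 at HT, 4.98, 4.07 and 5.09 CPM, and not in *GmMYB21a-OE2*. DD_newGene_384 had 2.84, 2.67 and 2.34 CPM in TL1 and 2 counts in *GmMYB21a-OE2*, a ratio of 138 (95% interval 37.8 to 1150). Both counts were in replicate 2, and the gene had no count in any HT library. DD_newGene_1646 fell from 2.83 ± 0.102 to 0.0472 ± 0.0317 CPM (SD, n = 3 each), and at HT lay at or below 0.252 CPM in both lines. DD_newGene_1026 and DD_newGene_1951, singled out after their values were seen, had the same count as each other in every one of the 12 libraries. They count as 2 of the 293 lower DEGs.

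WRKY transcription factors were the list with the clearest change at NT. All 13 members, like those of the other lists, come from the genes the study chose for a change at HT, so that their values and counts at HT are set by that choice. Among those genes as a whole, 20.8% of the ones higher at HT were lower at NT at an adjusted p-value below 0.05. Of the ones lower at HT it was 32.6%. At NT 7 of the 13 were DEGs, all lower, against 0.710% of all genes tested, and 8 without replicate 1 of *GmMYB21a-OE2*. At an adjusted p-value below 0.05 alone 12 were lower and 0 were higher, against 4.86% and 5.97% of all genes tested. The lines did not overlap in those 12, against 13.7% of all genes tested that were lower without overlap. Those 12 passed the test on these same libraries, which favours such a separation. The median log2 fold change was -1.07 at NT and 1.51 at HT. In each of the 13 the difference between the temperatures had an adjusted p-value below 0.05 in the edgeR test of the interaction, with a higher effect at HT by 1.04 to 4.80 on the log2 scale, as had 5.50% of all genes tested. The HT side of this contrast is set by the choice of the list, which favours a difference, so the count is a description.

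The pair of genes annotated as WRKY53, in Arabidopsis a regulator of leaf senescence, showed the widest swing. The study's second name differs and is WRKY41 for Glyma.05G215900 and WRKY46 for Glyma.08G021900. Glyma.05G215900 had 22.6, 21.1 and 22.3 CPM in TL1 and 9.08, 8.01 and 6.67 CPM in *GmMYB21a-OE2* at NT. Its log2 fold change was -1.48 (SE 0.096, edgeR adjusted p = 3.07e-10). At HT it had 4.11, 4.15 and 3.07 CPM in TL1 and 35.8, 34.3 and 43.9 CPM in *GmMYB21a-OE2*. The order of the lines was thus reversed without overlap at either temperature, and the log2 fold change at HT was 3.37 (SE 0.13). Glyma.08G021900 had 19.5, 18.1 and 19.7 CPM against 8.02, 9.33 and 8.01 CPM at NT, a log2 fold change of -1.18 (SE 0.089), and of 3.62 (SE 0.14) at HT. A further WRKY53 gene, Glyma.19G254800, lay just under the fold threshold at -0.957 (SE 0.10).

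Genes annotated as WRKY40, in Arabidopsis a modulator of defence and abscisic acid responses, included the largest decrease of the list. By the second name Glyma.17G222500 is WRKY63, Glyma.17G222300 is WRKY30 and Glyma.14G102900 is WRKY40. Glyma.17G222500 had 9.59, 7.24 and 10.8 CPM in TL1 and 3.16, 3.30 and 2.50 CPM in *GmMYB21a-OE2*, a log2 fold change of -1.62 (SE 0.15, edgeR adjusted p = 9.16e-08). At HT the same gene was higher in *GmMYB21a-OE2* by 1.77 (SE 0.20). Its neighbour Glyma.17G222300 fell by 1.31 on the log2 scale (SE 0.21), from 3.39 ± 0.727 to 1.36 ± 0.0612 CPM (SD, n = 3 each). Glyma.14G102900 fell by 1.25 (SE 0.15), from 5.89 ± 0.492 to 2.48 ± 0.215 CPM (SD, n = 3 each). Their sequences were not compared, and reads may be shared between them.

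At the other end of the list, the member annotated as WRKY11 (Glyma.09G061900) had 29.7, 34 and 32.3 CPM in TL1 and 30.0, 33.8 and 31.9 CPM in *GmMYB21a-OE2* at NT. Its libraries overlapped and its log2 fold change was -0.0068 (SE 0.067), although it was higher by 1.08 (SE 0.11) at HT. The decrease at NT was therefore not shared by all 13 genes. WRKY24 (Glyma.14G200200), the most abundant member, had 43.2 CPM in TL1 and 32.5 CPM in *GmMYB21a-OE2*, a log2 fold change of -0.415 (SE 0.060).

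**Figure D3:**
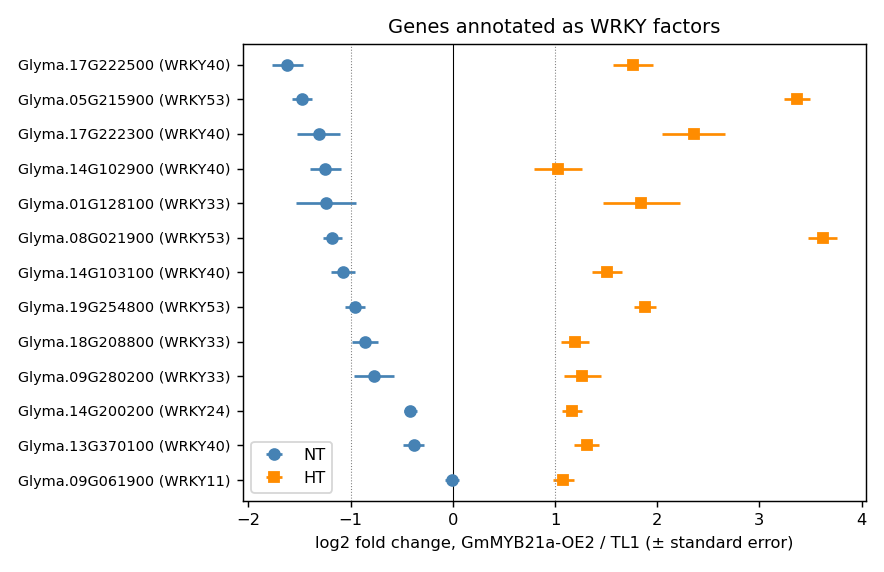
Log2 fold change between *GmMYB21a-OE2* and TL1 with its standard error (x axis) for the 13 genes annotated as WRKY factors (y axis), at NT (blue circles) and HT (orange squares). At NT 12 of the 13 lie clearly below 0 and WRKY11 lies at 0, whereas at HT, where the genes were chosen for their change, all 13 lie above 1.

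Receptor-like kinases and proteins, which sense signals at the cell surface, had 4 lower and 0 higher DEGs among 26 members, against 0.710% and 0.240% of all genes tested, with a median log2 fold change of -0.033. At an adjusted p-value below 0.05 alone 7 were lower and 0 higher, against 4.86% and 5.97% of all genes tested, so that most of the list did not pass the test. At an unadjusted p-value below 0.05 10 were lower and 2 higher, against 11.6% and 12.5%. At HT 23 of the 26 members were DEGs higher in *GmMYB21a-OE2*. Of the genes the study listed as higher at HT, 6.16% were DEGs lower at NT. At an adjusted p-value below 0.05 alone 20.8% of them were lower. Glyma.09G099900, a leucine-rich repeat kinase, had 4.73, 6.79 and 5.72 CPM in TL1 and 1.23, 1.26 and 0.611 CPM in *GmMYB21a-OE2*, a log2 fold change of -2.47 (SE 0.22, edgeR adjusted p = 3.41e-08). Glyma.12G007000, annotated as MIK2, a receptor kinase that in Arabidopsis senses immune peptides, had 4.39, 3.39 and 4.34 CPM against 1.12, 1.41 and 0.757 CPM, a log2 fold change of -1.88 (SE 0.22). The gene annotated as ANXUR2 (Glyma.18G271500), which in Arabidopsis keeps the growing pollen tube intact, fell by 1.37 (SE 0.28). EIX2 (Glyma.20G080700), in tomato a receptor of a fungal xylanase, fell by 1.17 (SE 0.31), a call lost without replicate 2 or 3 of TL1 and without replicate 1 or 2 of *GmMYB21a-OE2* (adjusted p = 0.0560 to 0.0907, edgeR). All 4 were higher in *GmMYB21a-OE2* at HT, by 1.07, 1.72, 1.37 and 1.09 on the log2 scale in the same order.

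The detoxification and copper chaperone list had 1 lower and 0 higher DEGs among 12, against 0.710% and 0.240% of all genes tested. At an adjusted p-value below 0.05 alone 6 members were lower. This compares with 4.86% of all genes tested and 20.8% of the genes the study listed as higher at HT. The median log2 fold change of the list was -0.553 at NT and 1.37 at HT, and all 12 values were negative at NT. The DEG was Glyma.09G016400, of a family of metal-binding proteins, with 4.61, 5.26 and 5.31 CPM in TL1 and 2.21, 2.58 and 2.50 CPM in *GmMYB21a-OE2*. Its log2 fold change was -1.06 (SE 0.15), and it fell just short of the threshold without replicate 1 of *GmMYB21a-OE2* (-0.994). In the list of xyloglucan and cell wall genes the expansin-like B1 genes were the 2 DEGs among 24 members, against 0.240% of all genes tested that were higher, and the median was 0.0521.

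The other 10 of the 14 lists, with 125 genes tested, held no DEG at NT in edgeR's test and 0 in DESeq2. Of all genes tested 0.949% were DEGs in edgeR's test. None among 125 is near that share and no result about these genes. At an unadjusted p-value below 0.05, with no fold threshold, 4 of these genes were higher and 42 lower, against 12.5% and 11.6% of all genes tested. The flavonoid enzymes were among them. Of 9 members 0 were higher and 1 was lower at an adjusted p-value below 0.05, against 4.86% of all genes tested that were lower, with a median log2 fold change of -0.186 at NT against 1.75 at HT. That gene, chalcone synthase 7 (Glyma.01G228700), of the enzymes of the first committed step of flavonoid synthesis, had 36.3, 40 and 36.9 CPM in TL1 and 24.7, 26 and 28 CPM in *GmMYB21a-OE2*. Its log2 fold change was -0.527 (SE 0.065, edgeR adjusted p = 5.89e-06). The remaining flavonoid genes had log2 fold changes from -0.612 to 0.525, and reads may be shared between the chalcone synthase genes, whose sequences were not compared. Genes that are named from here to the end of the lists were chosen after their values were seen.

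Genes that mark the tapetum, sporopollenin synthesis and the endothecium, the anther layers that nourish pollen and open the anther, were read in both lines. Of 15 members 0 were higher and 1 was lower at an adjusted p-value below 0.05. This compares with 4.86% of all genes tested and 20.8% of the genes the study listed as higher at HT. The log2 fold changes lay between -0.401 and 0.298. The lower gene was the tapetum dehydrogenase ATA1 (Glyma.18G278500), with 12.8 CPM in TL1 and 9.70 CPM in *GmMYB21a-OE2*. At HT all 15 were DEGs higher in *GmMYB21a-OE2* (1.94% of all genes tested), with a median of 1.53. This follows from the choice of the list at HT and is no result about its members.

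Of 16 members of the pollen tube and pectin list 9 were lower and 0 higher at an adjusted p-value below 0.05, against 4.86% and 5.97% of all genes tested, and 7 did not pass. At HT 13 of the 16 were DEGs lower in *GmMYB21a-OE2*. Of the genes the study listed as lower at HT, 32.6% were lower at NT at this threshold. The median log2 fold change of the list was -0.319 at NT and -1.20 at HT. A pectinesterase annotated as PPME1 (Glyma.01G066000), which in Arabidopsis acts in pollen tubes, had 11.7, 11.5 and 10.7 CPM in TL1 and 8.41, 7.46 and 9.08 CPM in *GmMYB21a-OE2*, a log2 fold change of -0.448 (SE 0.10, edgeR adjusted p = 0.00478). A polygalacturonase (Glyma.04G157500) had 24.2, 22.7 and 23.8 CPM against 18.1, 16.8 and 18.3 CPM, a log2 fold change of -0.410 (SE 0.071). In whole buds, fewer cells of a type and less RNA per cell cannot be told apart.

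Among regulators and signalling genes, the ERF and DREB factors had 4 of 19 members lower at an adjusted p-value below 0.05, the calcium-binding proteins 5 of 14 and the U-box ubiquitin ligases 2 of 13, with 0 higher in each. At this threshold 4.86% of all genes tested were lower, and 20.8% of the genes the study listed as higher at HT. The list medians were -0.0925, -0.364 and -0.0735. The zinc finger list had 3 of 12 lower and 1 higher (5.97% of all genes tested), and 2 genes annotated as CCCH 29 were its most abundant members. Glyma.14G016300 had 122, 125 and 123 CPM in TL1 and 77.8, 87.0 and 82.1 CPM in *GmMYB21a-OE2*, a log2 fold change of -0.586 (SE 0.049). Glyma.02G296600 had 83.4, 78.2 and 86.8 CPM against 49.7, 52.4 and 50.4 CPM, a log2 fold change of -0.707 (SE 0.053). At HT both were higher in *GmMYB21a-OE2*, by 2.33 and 2.48.

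Abscisic acid genes had 0 of 10 and auxin genes 1 of 12 members at an adjusted p-value below 0.05, the latter lower, against 4.86% of all genes tested. Of 5 sugar transporters and invertases 2 were lower, among them sugar transport protein 10 (Glyma.09G284200), with 17.7, 18.6 and 18.3 CPM in TL1 and 11.2, 12.3 and 12.3 CPM in *GmMYB21a-OE2*. It was lower at both temperatures, with log2 fold changes of -0.608 (SE 0.081) at NT and -1.31 (SE 0.33) at HT.

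**Figure D4:**
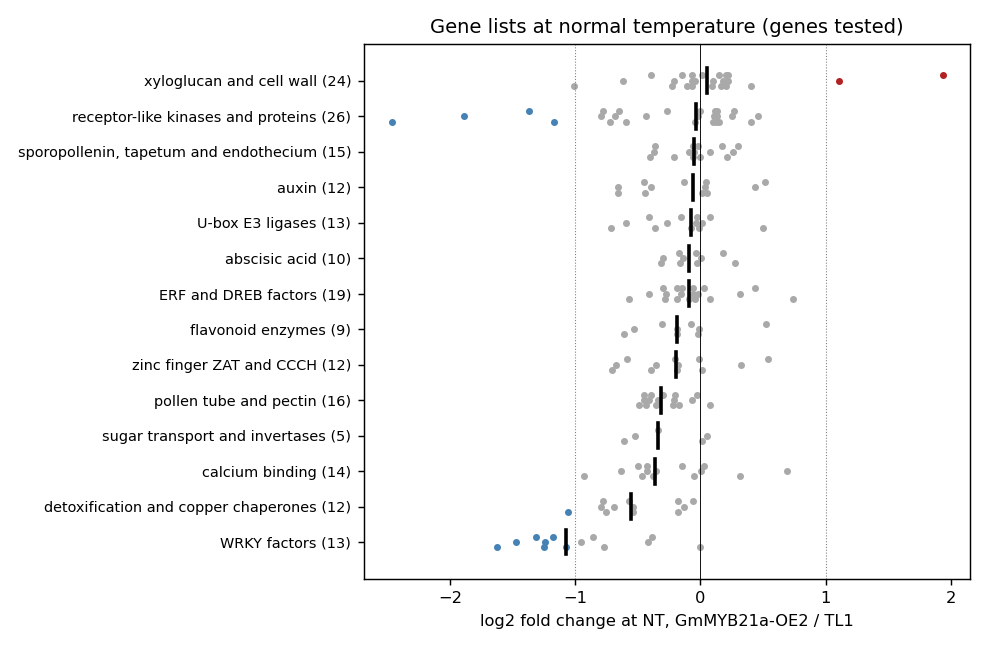
Log2 fold change at NT (x axis) of each tested member (points, number tested in brackets) of the 14 lists (y axis), with the median of the list (black bar) and DEGs in red (higher) and blue (lower). The WRKY median of -1.07 is the lowest, and 10 lists show no coloured point (0.949% of all genes tested were DEGs).

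Of the genes the study listed for a change at HT, 788 were tested at NT. Of these 19 were called higher and 56 lower at NT, against 0.240% and 0.710% of all genes tested. The NT and HT libraries are separate, although the lines are the same. Of the 649 listed genes that were higher at HT, 40 (6.16%) were called lower at NT and 15 (2.31%) higher. Of the 138 that were lower at HT, 16 (11.6%) were called lower at NT and 4 (2.90%) higher. The remaining gene, 1 of the 788, did not pass the filter on low counts at HT. The median log2 fold change at NT was -0.173 in those higher at HT and -0.248 in those lower at HT.

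From the side of the NT DEGs, 39 were also DEGs at HT in the same direction, which is 9.95% of the NT DEGs and 3.92% of the 996 DEGs at HT. A further 48 were DEGs at HT in the opposite direction, 12.2% of the NT DEGs and 4.82% of the HT DEGs. Of the 99 higher NT DEGs 19 were higher and 4 lower at HT, and of the 293 lower ones 44 were higher and 20 lower, whereas 1.94% of all genes tested at HT were DEGs higher and 0.475% DEGs lower there. Only 78 of the 99 higher and 219 of the 293 lower NT DEGs passed the filter on low counts at HT and were tested there. Of these, 55 of the higher and 155 of the lower were not called. Among those tested, the median log2 fold change at HT was 0.205 for the higher and 0.261 for the lower NT DEGs.

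The difference of the line effect between the temperatures itself had an adjusted p-value below 0.05 in 201 of the 392 NT DEGs, in edgeR's test over all 12 libraries, against 12.4% of all genes tested. The test was passed with a lower effect at HT by 46 of the 99 higher genes, against 6.91% of all genes tested, and with a higher effect at HT by 149 of the 293 lower genes, against 5.50%. The genes were called on the NT side of this contrast, which favours a difference, so the count is a description.

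**Figure D5:**
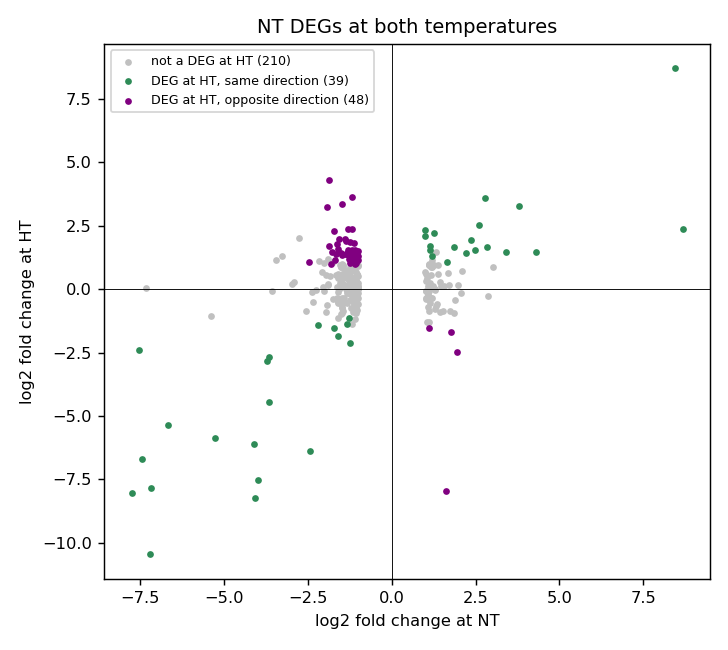
Log2 fold change between the lines at HT (y axis) against that at NT (x axis) for the NT DEGs that were also tested at HT, coloured by their call at HT. The 48 genes that reverse (purple) lie mostly at the upper left, lower at NT and higher at HT, and the 39 that keep their direction (green) include the largest decreases.

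By the chromosome number in the identifier, DEGs occurred on all 20 chromosomes. The share called lower ranged from 0.402% on chromosome 1 to 0.992% on chromosome 2. The share called higher ranged from 0 of 2854 genes on chromosome 13 to 0.460% on chromosome 8 and 0.467% on chromosome 19. The native *GmMYB21a* is itself 1 of the 9 higher DEGs of chromosome 19, and the site of the transgene is not given. In 6 places at least 3 DEGs lay among 6 consecutive tested identifiers. One is the thaumatin-like run described above.

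A run on chromosome 8 held genes of both directions. Glyma.08G317800 had 0.113, 0.0601 and 0.250 CPM in TL1 and 3.02, 2.64 and 2.80 CPM in *GmMYB21a-OE2*, a log2 fold change of 4.30 (SE 0.35), and of 4.96 without replicate 3 of TL1. Glyma.08G317626 rose by 3.01 (SE 0.44), from 0.129 to 1.07 CPM. On either side of them Glyma.08G317400 and Glyma.08G318000 fell by 1.09 (SE 0.18) and 1.13 (SE 0.18), the former call being lost without replicate 3 of *GmMYB21a-OE2* (-0.938). None of these 4 genes has a name in the files, and all 4 kept their sign at HT, with log2 fold changes of 1.48, 0.88, -0.59 and -0.58.

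A second run of chromosome 8 rests on weaker calls. Glyma.08G079200 had 4.16, 10.8 and 4.50 CPM in TL1 and 14.8, 15.9 and 14.8 CPM in *GmMYB21a-OE2*, a log2 fold change of 1.23 (SE 0.20), with replicate 2 of TL1 nearer to the other line. Its call was lost without replicate 1 of TL1 (0.986). Glyma.08G079700 fell by 1.62 and Glyma.08G080200 by 2.41, both from below 1 CPM. In *GmMYB21a-OE2* Glyma.08G080200 had counts in replicate 1 alone, without which the fit gave -6.45. The former call was lost without replicate 2 of TL1, and the latter without any 1 of the TL1 libraries and without replicate 2 or 3 of *GmMYB21a-OE2*.

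On chromosome 17 Glyma.17G030000, Glyma.17G030300 and Glyma.17G030400 fell by 1.12, 1.09 and 1.27 on the log2 scale. The last is annotated as SAM22, a soybean protein of the PR-10 family of pathogenesis-related proteins, and had 1.72, 1.65 and 0.844 CPM in TL1 and 0.475, 0.488 and 0.786 CPM in *GmMYB21a-OE2*. Each of the 3 calls was lost in at least 1 of the fits that left out a library, that of SAM22 without replicate 1 or 2 of TL1 or replicate 2 of *GmMYB21a-OE2*. On chromosome 2 Glyma.02G054200 had 58.7, 63.1 and 61.5 CPM in TL1 and 18.4, 22.2 and 22.4 CPM in *GmMYB21a-OE2*, a log2 fold change of -1.54 (SE 0.068). Near it Glyma.02G054900 and Glyma.02G055000, both below 1 CPM, fell as well, the former from 0.297 CPM to 3 counts in all in *GmMYB21a-OE2*, a ratio of 10.4 (95% interval 3.24 to 53.3, for counting error only), and its call was lost without replicate 1 of TL1 or replicate 3 of *GmMYB21a-OE2*. On chromosome 7 Glyma.07G038600, Glyma.07G038700 and Glyma.07G039050 rose by 1.97, 1.39 and 1.21, to 1.48, 2.94 and 1.98 CPM.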

How the data were processed

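RNA-seq libraries of flower buds of *GmMYB21a-OE2* and TL1 at NT (6 libraries) were compared, with the 6 HT libraries beside them. Groups came from the library titles. Raw read counts per gene, as whole numbers, were deposited by the authors for 53808 genes (52872 Glyma identifiers and 936 new genes). Reads had been trimmed and filtered, and the processing notes name StringTie 2.1.3b. The aligner, the genome build and the use of strand are not given in the sources used here, so the reads of close copies and of genes that overlap or run antisense cannot be told apart. Replicates are biological, per the paper's methods.

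CPM were computed on TMM effective library sizes over all 12 libraries. The line difference was fitted to the 6 NT libraries with the quasi-likelihood functions of edgeR 4.0.16 (R 4.3.3) after filterByExpr at default settings, with Benjamini-Hochberg adjustment over all genes tested. HT was fitted alike, and the interaction to all 12 libraries. The standard error is the absolute log2 fold change divided by the square root of the F value. Against a group with no count, a fold was computed with 3 counts over the group as a floor, and ratios on 1 to 3 counts carry exact (Clopper-Pearson) 95% intervals. Both cover counting error only. At these depths 1 count is 0.028 to 0.031 CPM.

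Named genes were *GmMYB21a*, the 10 largest changes in each direction among annotated DEGs and the 2 largest regardless of annotation (groups not overlapping, mean of at least 1 CPM in the higher group), the 3 most abundant DEGs in each direction, up to 3 genes read in 1 line only in each direction, up to 4 DEGs of each list, up to 5 annotated genes with opposite calls at HT, and genes of neighbouring runs. Lists were made from words of the study's annotation. The members and lists were chosen with earlier results of these data known. Libraries of a group differed beyond sampling noise (chi-square per degree of freedom at least 2.74), and replicate numbers were not taken as pairs of the lines. The count models were tested on simulated data. Alternatives were RLE size factors, DESeq2 1.42.0, no filter, a filter of at least 1 CPM in at least 3 libraries, Glyma genes only, one fit of all 12 libraries, a replicate block, each NT library left out and other thresholds. Promoter motifs were not analysed here. Python 3.11.15 was used with pandas 2.3.3, numpy 2.4.6, matplotlib 3.10.9 and scipy 1.17.1.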

Additional observations from a re-analysis of the deposited data

Results flagged for a closer look

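The line difference at NT was set against that at HT by the edgeR test of the interaction, and 201 of the 392 NT DEGs had an adjusted p-value below 0.05. Of the 51 named genes 37 were among them, and in 33 of these the difference ran against the NT change. Values are log2 fold changes at HT minus those at NT, so that a positive value means a relatively higher level in *GmMYB21a-OE2* at HT. The genes were named from the NT DEGs, and some of them, such as Glyma.08G021900, for an opposite call at HT. Those with an annotation had also been chosen by the study for a change at HT. These choices favour a difference of this kind, so the counts of 37 and 33 are a description.

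Among genes lower at NT, the difference was 4.80 for Glyma.05G215900 and 4.75 for Glyma.08G021900, both annotated as WRKY53. It was 3.62 for Glyma.17G222300, 3.34 for Glyma.17G222500 and 2.23 for Glyma.14G102900, annotated as WRKY40. The receptor-like genes had 3.49 (Glyma.09G099900), 3.55 (Glyma.12G007000), 2.69 (Glyma.18G271500) and 2.21 (Glyma.20G080700). The abundant genes had 2.80 (SIEVE ELEMENT OCCLUSION B, Glyma.20G204500), 2.33 (Glyma.11G155000) and 2.24 (Glyma.12G233000). The metal-binding protein gene Glyma.09G016400 had 2.04. The chromosome 17 run had 2.0 (Glyma.17G030000), 1.52 (Glyma.17G030300) and 2.42 (SAM22, Glyma.17G030400), and the chromosome 2 run 2.04 (Glyma.02G054200), 5.69 (Glyma.02G054900) and 5.79 (Glyma.02G055000). JAR1 (Glyma.06G243500) had 0.922 and DD_newGene_1646 had 5.49. Villin-4 (Glyma.13G098600) and DD_newGene_638 were lower still at HT, by -2.02 and -4.19.

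Among genes higher at NT, the difference was -4.47 (Glyma.05G065700) and -2.69 (Glyma.17G147500) for expansin-like B1 and -3.50 for laccase-7 (Glyma.03G073776). It was -0.843 for the RPM1-type gene (Glyma.08G319300), -1.34 for Glyma.01G142400 and -0.755 for Glyma.14G156400. The chromosome 7 run had -1.83 (Glyma.07G038600) and -2.17 (Glyma.07G038700), and those of chromosome 8 had -2.18 (Glyma.08G317626), -2.88 (Glyma.08G317800) and -1.23 (Glyma.08G079200). The value of -6.44 for Glyma.09G101100 is no measure of size, since TL1 had no count of it at NT. In *GmMYB21a* (0.768) and the thaumatin-like gene Glyma.10G061800 (1.04) the increase was larger at HT. Values of genes with a few counts in a group, such as those of DD_newGene_1646 and DD_newGene_638 and of Glyma.02G054900 and Glyma.02G055000, depend on how low counts are fitted.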

How the results depend on the processing

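The filter on low counts and the thresholds moved the number of DEGs most. A filter of at least 1 CPM in at least 3 libraries left 242 DEGs (64 higher, 178 lower), 24 of them DEGs at HT in the same and 31 in the opposite direction. An adjusted p-value below 0.01 gave 254 (64 higher, 190 lower), and no fold threshold 4472 (2466 higher, 2006 lower). DESeq2 gave 347, all of them among the 392. The fits that each left out 1 NT library gave 330 to 458 DEGs (83 to 112 higher, 237 to 346 lower), sharing 274 to 338 with the 392. The highest count came without replicate 1 of *GmMYB21a-OE2*. In those fits 66 to 78 genes of the study's HT list were called, 34 to 39 DEGs kept and 38 to 51 reversed their direction at HT, 169 to 227 had an interaction, 6 to 8 WRKY genes were lower and 45 to 48 of the 51 named genes were called. The log2 fold change of *GmMYB21a* was 2.73 to 2.88. The alternatives for the WRKY list and for reversed genes were chosen after seeing the data.

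Of 651 values of single named genes under the alternatives 619 kept their call and 32, in 14 genes, lost it. None of these values reversed its sign. Beside calls lost by leaving out a library, DESeq2 lost Glyma.08G079200 (adjusted p = 0.0564) and Glyma.08G080200 (0.0865), no filter lost Glyma.02G054900 (0.0532) and Glyma.08G080200 (0.138), and the fit of all 12 libraries lost the latter (0.144).

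Libraries with the same replicate number correlated by 0.0225, 0.0387 and 0.0119 in their deviations, all below 0.1. Replicates 1 and 2 of TL1 correlated best with the *GmMYB21a-OE2* library of the same number. Replicate 3 of TL1 correlated best with replicate 1 of *GmMYB21a-OE2* (0.0307). Values this small do not settle whether the numbers pair the lines, and the numbers were not taken as pairs. With a replicate block 413 DEGs were called (108 higher, 305 lower), 384 of them among the 392, and the log2 fold change of *GmMYB21a* was 2.79. At 1 to 3 counts in a group, the fold is set by counting error.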
